A study of Mus musculus with 18 samples.

Results

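A set of 10 genes, chosen for a large change in mature luminal (ML) cells of the mouse mammary gland, were followed through 18 single-cell RNA-seq (scRNA-seq) libraries. The 10 members, of 31053 features counted, were Ido1, Aoc1, Fgb, Fgg, Tgm2, Tnip3, Pnmt, Gpx3, Upk3a and Sprr1a, and they were taken by name. The members were chosen by the size of their change in ML cells between stages, so those values are given as a description, without a test. The libraries held mammary cells pooled from several mice, apart from 1 of adjacent skin, and the postnatal cells were Lin- (Ter119- CD31- CD45-). A library, not a cell, was the unit of replication. The FVB/NJ glands were virgin adult at 10 weeks (3 libraries), pregnancy day 12.5 (2 libraries), pregnancy day 18.5 (2 libraries), lactation day 10 (2 libraries) and post-involution, labelled 3 weeks after birth (1 library). A single library each came from virgin adult C57BL/6 and SWISS mice of 10 weeks. Pubertal terminal end buds (TEBs) and ducts were microdissected from 5-week glands of C57BL/6 mice with GFP on E-cadherin, and gave 1 library each, and day 5 and 2.5-week C57BL/6 glands also gave 1 each. Mammary rudiments and the skin next to them came from E18.5 C57BL/6 embryos with Lgr5-GFP, 1 library each. Estrous stage was not determined in the adult mice of the strain comparison. For a group of 1 library, strain or stage cannot be told apart from the library.

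ML cells are the luminal cells that carry estrogen and progesterone receptors, and they pass hormone signals on to neighbouring luminal progenitor (LP) and basal cells. Ido1 encodes indoleamine 2,3-dioxygenase, which opens the ring of tryptophan at the start of the kynurenine pathway. Aoc1 encodes diamine oxidase, which breaks down histamine and putrescine, and Pnmt the enzyme that methylates noradrenaline to adrenaline. Tgm2 is a transglutaminase that cross-links proteins, fibrin among them, and Gpx3 is the secreted glutathione peroxidase. Fgb and Fgg encode the beta and gamma chains of fibrinogen, the clotting protein of plasma, which is made mainly in the liver from alpha, beta and gamma chains. Tnip3 binds A20 and dampens NF-kB signalling, Upk3a is a uroplakin of the bladder lining, and Sprr1a is a small proline-rich protein of the cornified envelope.

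Fgg and Fgb lie on chromosome 3 with Fga, the gene of the alpha chain, between them. On GRCm38, the build named as mm10 in the submitters' notes, Fgg spans chr3:83007724-83015049 (plus strand), Fga chr3:83026076-83033627 (plus strand) and Fgb chr3:83040141-83049863 (minus strand). The 3 genes cover 42140 bases, with 11026 bases between Fgg and Fga and 6513 bases between Fga and Fgb. Sequence before each gene is shown because Fgb and Fgg were both read in ML cells while Fga, which lies between them, was almost absent. It was taken from RefSeq on GRCm38.p6, from the 250 bases before each RefSeq start. For Fgg (chr3:83007474-83007723, plus strand) and Fgb (chr3:83049864-83050113, minus strand) the window ends at the gene. The RefSeq start of Fga lies inside the gene span given above, so the last 77 bases of its window are left out and 173 are shown (chr3:83025903-83026075, plus strand). They are written from 5′ to 3′ of each gene, with capitals for CTGGGA, the core of an interleukin-6 response element in acute-phase genes.
Fgg: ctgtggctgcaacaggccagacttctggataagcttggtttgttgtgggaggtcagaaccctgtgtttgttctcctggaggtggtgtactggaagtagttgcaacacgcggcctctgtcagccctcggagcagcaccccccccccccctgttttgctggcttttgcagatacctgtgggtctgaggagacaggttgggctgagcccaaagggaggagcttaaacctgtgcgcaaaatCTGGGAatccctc
Fga: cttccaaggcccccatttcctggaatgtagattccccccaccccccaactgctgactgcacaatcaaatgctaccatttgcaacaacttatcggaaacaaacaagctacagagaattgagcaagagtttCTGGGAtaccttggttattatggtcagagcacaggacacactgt
Fgb: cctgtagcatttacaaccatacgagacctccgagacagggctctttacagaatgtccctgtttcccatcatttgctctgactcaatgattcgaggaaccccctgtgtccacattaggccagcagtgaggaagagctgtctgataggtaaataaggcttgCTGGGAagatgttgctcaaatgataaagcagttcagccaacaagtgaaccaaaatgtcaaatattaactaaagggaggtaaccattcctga

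All 3 windows held CTGGGA once, starting 13 bases before the annotated gene for Fgg, 44 for Fga and 91 for Fgb. Searched on both strands, CTGGGA was in 27.0% of 32851 promoter windows of the same length. TTGCNNAA, a C/EBP core, was in the windows of Fga and Fgb and in 9.56% of all windows. TATAAA (12.4% of windows) and the HNF1 motif (0.00913%) were in none of the 3. The HNF1 motif was searched only as a long fixed pattern, which 3 of 32851 windows held. Its absence therefore cannot show that these windows lack a looser HNF1 site. Of the 10 members, 7 had an entry in the promoter table, and Ido1, Tgm2 and Pnmt had none.

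The other members lie at chr8:24584136-24597009 (Ido1, minus), chr6:48872896-48909188 (Aoc1, plus), chr2:158116402-158146436 (Tgm2, minus) and chr6:65525313-65634040 (Tnip3, plus). Pnmt is at chr11:98386450-98388181 (plus), Gpx3 at chr11:54902453-54910377 (plus), Upk3a at chr15:85017141-85022547 (plus) and Sprr1a at chr3:92483952-92485895 (minus). Sprr1a belongs to a family of short, similar genes, and how far reads were shared within the family was not tested.

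ML cells were called by clustering and 8 marker genes, among them Esr1, Pgr and Prlr, and 18910 of them came from the 14 pubertal, adult and later libraries. They numbered 183 to 4827 per library, and made up 26.7% to 32.4% of kept cells in adult FVB/NJ glands, 1.78% and 1.84% at pregnancy day 12.5, and 33.1% post-involution. Levels are given as counts per 1000000 unique molecular identifiers (UMIs) outside the milk genes (CPM), summed over the ML cells of a library, and intervals cover counting error only. The 8 ML markers summed to between 6310 and 6984 CPM in ML cells of the adult FVB/NJ libraries and to 2371 and 2467 CPM at pregnancy day 12.5. Adult FVB/NJ replicate 2 stood apart, with 1065 CPM of fibroblast markers against 108 and 29.5 in the other adult FVB/NJ libraries, and with 22564 CPM of dissociation-response genes against 7218 and 7391. It also held the fewest UMIs of the 18 libraries (9920346) and was the only one with barcodes of 14 bases, where all others had 16. In ML cells it was the highest adult FVB/NJ library for Ido1, Aoc1, Fgb, Fgg and Gpx3, and the part of these differences in those levels was not tested. The libraries with barcodes of 16 bases also differed among themselves. Adult FVB/NJ replicate 1 shared 172 cell barcodes with pregnancy day 12.5 replicate 1, 35 with TEBs and 23 with ducts. With C57BL/6 it shared 4, with SWISS 2 and with day 5 it shared 1. The part of this difference in comparisons across strain or age was not tested. SWISS ML cells held 598 CPM of fibroblast markers. ML cells of lactation replicate 2 held 9154 CPM of epidermal markers, against 19.8 to 78.6 CPM in the other libraries from day 5 onwards. Markers of the organs that usually make fibrinogen and adrenaline were near 0 in ML cells of every library. The 6 hepatocyte genes summed to at most 2.36 CPM with Alb and Apob at 0, and the 5 chromaffin genes to at most 2.18 CPM with Th and Chga at 0.

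**Figure D1:**
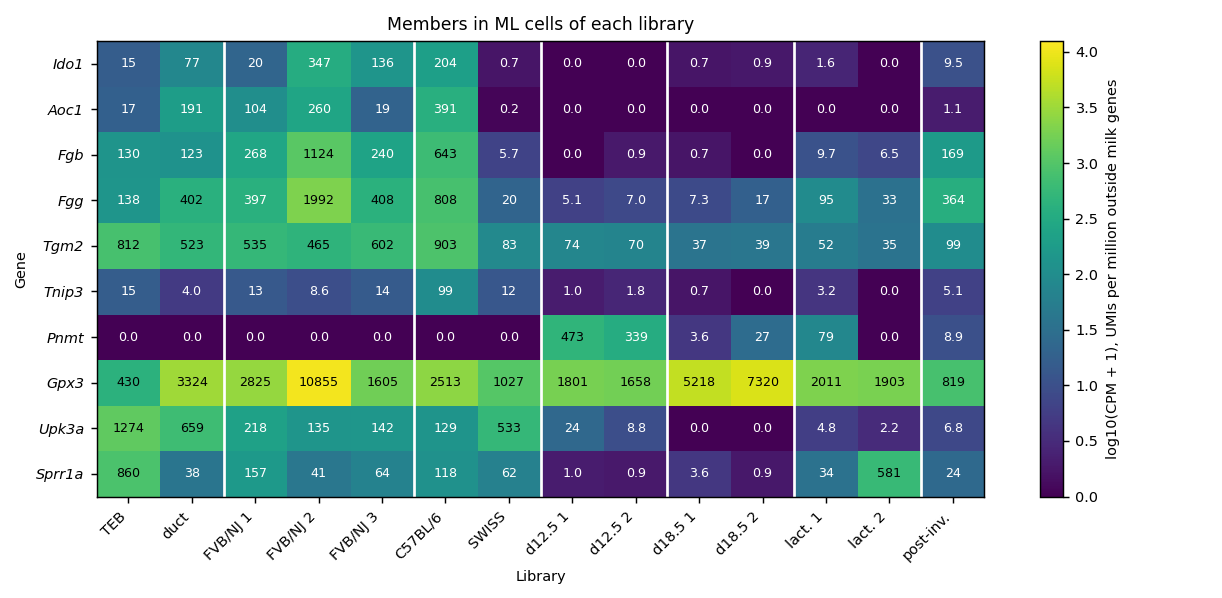
CPM of the 10 members (rows) in ML cells of 14 libraries (columns), coloured by log10(CPM + 1) with the CPM printed in each cell. Most members are bright in the adult FVB/NJ and C57BL/6 columns and dark at pregnancy days 12.5 and 18.5, while Pnmt is at 0 in all 5 adult columns and reaches 473 and 339 CPM at pregnancy day 12.5.

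Ido1 and Aoc1, the enzymes of tryptophan and diamine breakdown, were read in adult ML cells of FVB/NJ and C57BL/6 glands. In the ML cells of any library of pregnancy or lactation they held at most 1 UMI each. Ido1 stood at 20.4, 347 and 136 CPM in adult FVB/NJ replicates 1 to 3, at 204 CPM in C57BL/6 and at 0.717 CPM in SWISS (14 UMIs in 2263 cells). At pregnancy day 12.5 both libraries held 0 Ido1 UMIs. The adult mean was 168 ± 166 CPM (SD, n = 3), and 78.4 CPM without replicate 2. With counts pooled over libraries (3622 adult UMIs), the adult level was at least 65.8-fold higher than the level that 3 counts over both pregnancy libraries would give. Without adult replicate 1 this bound was 126-fold, without replicate 2 it was 47.4-fold and without replicate 3 it was 48.3-fold. Day 18.5 gave 1 UMI in each library, lactation 1 and 0, and post-involution 186 UMIs in 3312 cells (9.46 CPM, 2.16-fold under the lowest adult FVB/NJ library). The adult FVB/NJ libraries were separate from all later FVB/NJ libraries, though they spread over a wide range among themselves.

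Aoc1 was at 104, 260 and 19.5 CPM in the adult FVB/NJ libraries, at 391 CPM in C57BL/6 and at 0.154 CPM in SWISS (3 UMIs). It had 0 UMIs in the ML cells of all 6 libraries of pregnancy and lactation, and 21 UMIs (1.07 CPM) in those of post-involution. The adult mean was 128 ± 122 CPM (SD, n = 3), and 61.96 CPM without replicate 2. Against the floor of 3 counts a stage, the level pooled over the adult libraries (3396 UMIs) was at least 61.7-fold higher than at day 12.5, at least 74.6-fold higher than at day 18.5 and at least 31.6-fold higher than at lactation. Among adult FVB/NJ libraries, replicate 3 was lowest for Aoc1 and replicate 1 lowest for Ido1, so the enzymes did not share one order.

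Both fibrinogen genes were read in many adult ML cells, were down to a few UMIs in pregnancy and stood between these levels post-involution. Fgb was at 268, 1124 and 239.8 CPM in the adult FVB/NJ libraries and at 643 CPM in C57BL/6, but at 5.68 CPM in SWISS. ML cells of the 4 pregnancy libraries held 2 Fgb UMIs in all (0 and 1 at day 12.5, 1 and 0 at day 18.5), and those of the lactation libraries 6 and 3 (9.66 and 6.53 CPM). Post-involution it stood at 169 CPM (95% Poisson interval 163 to 175), under the lowest adult FVB/NJ library.

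Fgg followed the same course, with 397, 1992 and 408 CPM in adult FVB/NJ, 808 CPM in C57BL/6 and 19.7 CPM in SWISS. At pregnancy day 12.5 its level was 5.13 and 7.05 CPM, from 5 and 8 UMIs, and at day 18.5 it was 7.25 and 17.1 CPM. The lactation libraries had 95.02 and 32.7 CPM, and the post-involution library 364 CPM. The adult FVB/NJ mean of 932 ± 918 CPM (SD, n = 3) was 153-fold that of day 12.5 and 14.6-fold that of lactation. Without replicate 2 the adult mean of Fgg was 402 CPM, 66.03-fold that of day 12.5 and 6.301-fold that of lactation.

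Fga, whose alpha chain completes the fibrinogen molecule, was almost absent from these cells. It had 2 UMIs over the ML cells of 14 libraries, with 12 libraries at 0, against 41684 UMIs for Fgb and 62471 for Fgg. In all kept cells of the 18 libraries there were 9 Fga UMIs.

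**Figure D2:**
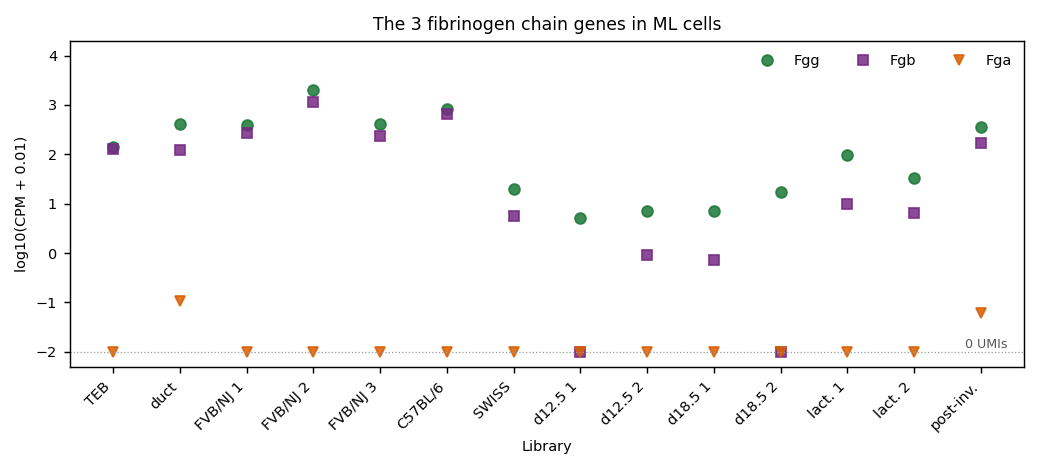
log10(CPM + 0.01) of Fgg, Fgb and Fga in ML cells of 14 libraries, with points on the dotted line at 0 UMIs. Fgg and Fgb are both high in the adult FVB/NJ and C57BL/6 libraries and low in SWISS and in pregnancy, while Fga leaves the line only in the duct and post-involution libraries.

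Tgm2 was the steadiest member among adult FVB/NJ glands, at 535, 465 and 602 CPM (mean 534 ± 68.7, SD, n = 3). It was higher in C57BL/6 (903 CPM) and lower in SWISS (83.4 CPM). The level was 73.9 and 69.6 CPM at pregnancy day 12.5, 37.0 and 39.3 CPM at day 18.5, and 51.5 and 34.8 CPM at lactation. Post-involution it was 98.9 CPM, so every later FVB/NJ library lay under all adult ones. The adult mean was 7.44-fold that of day 12.5.

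Tnip3 was scarce. The adult FVB/NJ libraries had 12.9, 8.56 and 13.9 CPM (269, 31 and 198 UMIs), SWISS had 12.2 CPM, and C57BL/6 stood out with 98.5 CPM (3160 UMIs). ML cells of the pregnancy and lactation libraries held 0 to 2 UMIs per library, and those of the post-involution library 101 UMIs (5.14 CPM).

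Gpx3 kept to the adult range through pregnancy and lactation. It stood at 2825, 10855 and 1605 CPM in the adult FVB/NJ libraries, 2513 CPM in C57BL/6 and 1027 CPM in SWISS. The values were 1801 and 1658 CPM at pregnancy day 12.5, 5218 and 7320 CPM at day 18.5, and 2011 and 1903 CPM at lactation, all inside the adult FVB/NJ range. Only the post-involution library, at 819 CPM, lay under that range among the FVB/NJ stages. The range itself depends on replicate 2, since without it the day 18.5 libraries would lie above both adult ones.

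Pnmt went the other way and does not belong to adult virgin ML cells in these data. It had 0 UMIs in ML cells of all 5 adult libraries and both pubertal ones. At pregnancy day 12.5 there were 461 and 385 UMIs (473 and 339 CPM), carried by 51.5% of 198 ML cells and 48.0% of 246. The mean was 406 ± 94.8 CPM (SD, n = 2), and the level pooled over both libraries was at least 5172-fold higher than the level that 3 counts over the 3 adult FVB/NJ libraries would give. At day 18.5 it was down to 5 and 32 UMIs (3.63 and 27.3 CPM), and the lactation libraries differed, with 49 UMIs in replicate 1 and 0 in replicate 2. Post-involution, 175 UMIs (8.90 CPM) were spread over 113 of 3312 cells.

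Upk3a was at 218, 135 and 142 CPM in the adult FVB/NJ libraries and at 129 CPM in C57BL/6. SWISS, low for most members, was the highest adult library for Upk3a, at 533 CPM. It dropped to 23.6 and 8.81 CPM at pregnancy day 12.5 and had 0 UMIs in both day 18.5 libraries. ML cells of the lactation libraries held 3 and 1 UMIs, and those of the post-involution library 134 UMIs (6.82 CPM).

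Sprr1a stood at 157, 40.9 and 64.5 CPM in adult FVB/NJ, 118 CPM in C57BL/6 and 62.0 CPM in SWISS, against 1.03 and 0.881 CPM (1 UMI each) at pregnancy day 12.5. Day 18.5 gave 5 and 1 UMIs in ML cells, and post-involution 23.8 CPM. At lactation replicate 1 had 33.8 CPM and replicate 2 had 581 CPM, from 267 UMIs in 22 cells. The latter is the library with 9154 CPM of epidermal markers in its ML cells, and their part in the Sprr1a level was not tested.

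Set against the range of the 3 adult FVB/NJ libraries, 8 of the 10 members were lower in both pregnancy day 12.5 libraries, as they were in both day 18.5 libraries. Of 8971 genes tested in ML cells, 17.7% lay under that range in both day 12.5 libraries and 11.3% in both day 18.5 libraries. In both lactation libraries 7 were lower and 0 higher (15.4% and 16.9% of all genes). Post-involution, 9 members were lower and Pnmt was higher, where 12.7% of all genes were lower and 26.1% higher. Against the range without adult replicate 2, the lower members again numbered 8, 8, 7 and 9 over these stages. SWISS had 6 members below the range and 1 above it (19.3% and 27.8% of all genes), and C57BL/6 had 1 below and 3 above (14.1% and 33.0%). The members were picked for such changes, so nothing is read from these counts.

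Fractions of ML cells with a transcript were taken with sampling depth held equal, and did not always order the libraries as CPM did. Cells were thinned to 1000 UMIs outside the milk genes, and shallower cells were left out, so that 1020 of 1032 ML cells were used in adult FVB/NJ replicate 2, 4807 of 4827 in C57BL/6 and 2253 of 2263 in SWISS. Ido1 was then seen in 1.64%, 9.12% and 10.6% of ML cells of the adult FVB/NJ libraries and in 13.7% in C57BL/6, but in 0.0444% in SWISS. Replicate 2, highest of these libraries by Ido1 CPM, was thus under replicate 3 and C57BL/6 by share. Without thinning the adult FVB/NJ shares were 8.14%, 14.7% and 36.6%, at median depths of 7112, 3399 and 8439 UMIs per ML cell. Basal cells, a type not known for these transcripts, gave Ido1 in 0.435%, 0.0808% and 1.76% of cells at median depths of 4095, 1916 and 4459 UMIs. In the same unthinned basal cells Fgg was seen in 9.03%, 13.2% and 16.6% and Fgb in 4.77%, 0.969% and 12.7%. Aoc1 was seen, after thinning, in 7.13%, 11.4% and 1.91% of ML cells in FVB/NJ and in 19.1% (95% Clopper-Pearson interval 18.0% to 20.3%) in C57BL/6.

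Fgg was detected in 23.7%, 45.6% and 26.2% of thinned FVB/NJ ML cells, 33.6% in C57BL/6, 1.82% in SWISS and 19.7% post-involution. Fgb was detected in 14.2%, 19.7% and 14.3% of FVB/NJ cells, 23.0% in C57BL/6, 0.444% in SWISS and 9.38% post-involution, so that C57BL/6 was above replicate 2 by share and under it by CPM. For Upk3a the share was 21.4% (interval 19.7% to 23.1%) in SWISS and between 4.58% and 10.0% in the other adult libraries. Gpx3 was detected in 47.1% of thinned cells in SWISS and in 65.2% to 88.4% in the other adult libraries. In adult FVB/NJ replicate 2, the highest adult FVB/NJ library for both genes by CPM, unthinned Ido1-positive cells carried 8.27 UMIs each on average. Fgb-positive cells of that library carried 14.96.

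**Figure D3:**
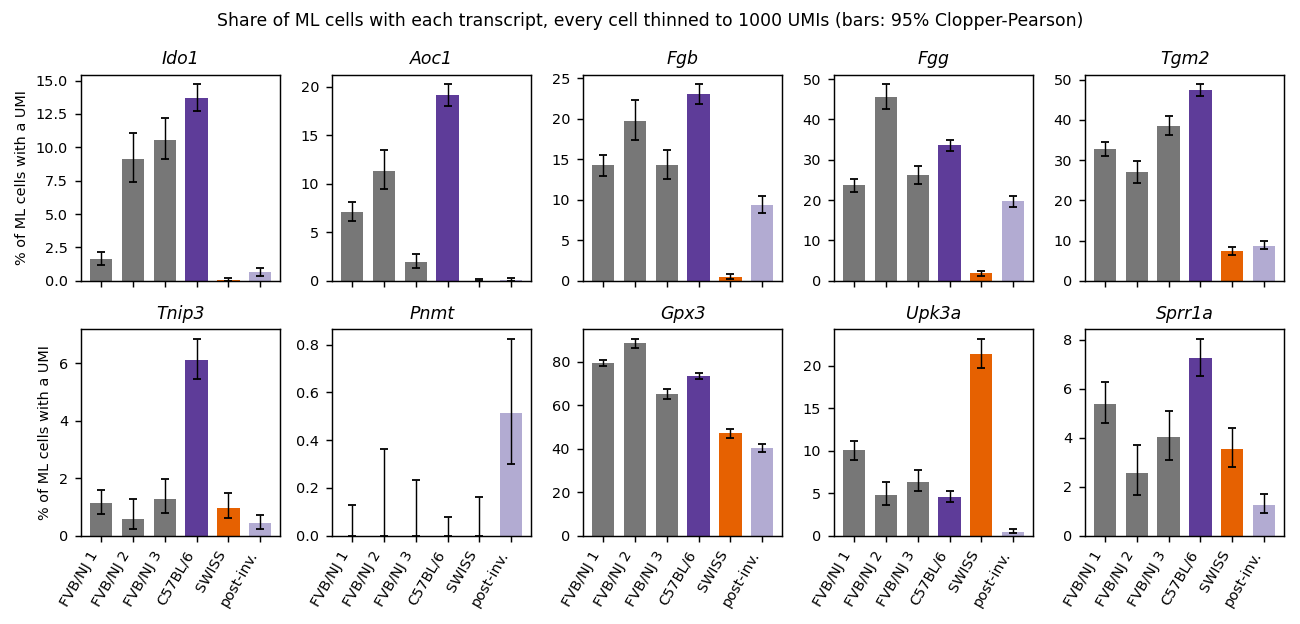
Percentage of ML cells with at least 1 UMI of each member after thinning to 1000 UMIs, in the 5 adult libraries and the post-involution library, with 95% Clopper-Pearson intervals (counting error only). SWISS is near 0 for Ido1, Aoc1, Fgb and Fgg and highest for Upk3a, and C57BL/6 is highest for Ido1, Aoc1, Fgb, Tgm2, Tnip3 and Sprr1a.

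In the pubertal gland the members divided between TEBs and ducts, each 1 library. Ducts held more Aoc1 (191 against 17.0 CPM), Gpx3 (3324 against 430 CPM), Ido1 (76.7 against 15.1 CPM) and Fgg (402 against 138 CPM). TEBs held more Sprr1a (860 against 37.9 CPM), Tnip3 (14.9 against 3.98 CPM), Upk3a (1274 against 659 CPM) and Tgm2 (812 against 523 CPM), whereas Fgb was nearly level at 130 and 123 CPM. Counted at 2-fold or more, 4 members were higher in ducts and 2 in TEBs, against 3.38% and 3.14% of the 8971 genes. The members were picked for change in ML cells, so nothing is read from these counts either. Earlier in C57BL/6, ML-like cells of day 5 had no Ido1 UMI in 273 cells, which allows up to 1.24 CPM at the upper 95% limit, yet they already held 236 CPM of Fgb, 410.5 CPM of Fgg and 497 CPM of Upk3a. At 2.5 weeks Fgg reached 1170 CPM, and Aoc1 had 0 UMIs in 337 cells after 1 UMI at day 5.

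The members were next read in LP/alveolar and basal cells of the FVB/NJ libraries, which the choice had not used, with edgeR's quasi-likelihood test on counts summed per library and Benjamini-Hochberg adjustment over all genes. Between adult and pregnancy day 12.5, Fgg and Gpx3 fell in LP/alveolar cells, and Tgm2 and Tnip3 did not pass the test. These 4 members passed the filter on low counts through several stages. Ido1, Aoc1, Fgb, Upk3a and Sprr1a passed it through the adult libraries alone, and Pnmt through day 12.5 alone. The filter thus picked them for a higher level at that stage, and their values are given without a test. In this comparison 12.4% of 13432 genes were called, 6.77% lower and 5.67% higher. Fgg went from 18.4, 131 and 30.8 CPM to 0.478 and 0.670 CPM (log2 change -6.46 ± 1.05 SE, adjusted p = 0.00626). Over the alternative settings its log2 change ran from -7.40 to -5.27. Gpx3, whose ML level stayed in the adult range, fell here from 126, 501 and 164 CPM to 8.82 and 9.87 CPM (log2 change -4.63 ± 0.76, adjusted p = 0.00641).

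Fgb and Ido1 had 439 and 63 UMIs in adult LP/alveolar cells and 0 at day 12.5, so the level pooled over the adult libraries was at least 436-fold and at least 62.5-fold higher than 3 counts would give. Without adult replicate 1 these bounds were 923-fold and 145-fold. Without replicate 2 they were 302-fold and 45.9-fold, and without replicate 3 they were 371-fold and 44.0-fold. Upk3a was at 16.7, 10.8 and 11.6 CPM in adults and at 0 and 0.0353 CPM (1 UMI) at day 12.5. Aoc1 had 76 UMIs in adults and 9 at day 12.5, and Sprr1a 77 and 11. Pnmt had 0 UMIs in adults and 27 and 29 at day 12.5. Tgm2, in contrast, was at 68.4, 50.9 and 95.6 CPM in adults and 63.5 and 66.7 CPM at day 12.5 (log2 change -0.05 ± 0.37, adjusted p = 0.949), and Tnip3 changed by -0.31 ± 0.62 (adjusted p = 0.775). Tgm2 was then at 47.7 and 67.4 CPM at day 18.5 and at 27.4 and 43.2 CPM at lactation, the last 2 under every adult FVB/NJ library. The lactation libraries held 1654 and 1649 LP/alveolar cells. A further 2287 and 3624 cells, with 81.6% and 75.3% of UMIs from milk genes, were in no named class and are outside these values.

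The summed ML markers moved with Fgg and Gpx3 in LP/alveolar cells, from between 414 and 587 CPM in adults to 66.2 and 63.2 CPM at day 12.5, and their part in these changes was not tested. In adult FVB/NJ glands those markers stood in LP/alveolar cells at 5.93%, 6.87% and 9.31% of their ML level. Fgg stood at 4.64%, 6.59% and 7.55% of its ML level, Gpx3 at 4.46%, 4.61% and 10.2%, and Tgm2 at 12.8%, 10.95% and 15.9%. Leaving out pregnancy day 12.5 replicate 1 or 2, which left that stage with 1 library, ended the calls of both Fgg and Gpx3, while the genes called in all went from 1670 to 83 and 96. No member was called in LP/alveolar cells between days 12.5 and 18.5 (0.901% of genes, 0.759% higher and 0.141% lower) or between day 18.5 and lactation (1.75% of genes, 1.43% higher and 0.32% lower). Before adjustment Gpx3 passed 0.05 in edgeR in the first of these steps and Sprr1a in the second, Pnmt being left out of the first as it passed the filter through day 12.5 alone. The member calls of DESeq2 numbered 1 (Gpx3) and 0. The shares above are those of edgeR, and DESeq2 called more genes in all in both steps, as given in the closing section. Members at 0 UMIs in every library of a step could not be called, which were Ido1 and Fgb in both steps and Pnmt and Upk3a in the second.

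In basal cells 9 members passed the filter on low counts, 5 of them (Ido1, Aoc1, Fgb, Upk3a and Sprr1a) through the adult libraries alone. Of the other 4, Gpx3 was called between adult and day 12.5, from 116, 52.3 and 155 CPM to 5.36 and 5.59 CPM (log2 change -4.23 ± 0.79, adjusted p = 0.0359), where 1.39% of 13346 genes were called (0.862% lower, 0.532% higher). Fgg, at 43.0, 205 and 44.1 CPM in adults and 10.97 and 11.9 CPM at day 12.5, was not called (log2 change -2.88 ± 0.70, adjusted p = 0.0764), nor were Tgm2 (-1.19 ± 0.42, adjusted p = 0.211) and Tnip3 (-3.20 ± 1.15, adjusted p = 0.223). Without a test, Fgb had 743, 94 and 372 UMIs in the adult libraries and 0 at day 12.5, Upk3a was at 98.1, 20.8 and 29.6 CPM and then at 0 and 0.0673 CPM, and Aoc1 had 63 UMIs and then 1.

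At day 12.5 the Fgg level of basal cells was above that of ML cells (5.13 and 7.05 CPM), and at day 18.5 it was again higher, 33.8 and 31.2 CPM against 7.25 and 17.1 CPM. ML markers in basal cells went from 567, 78.8 and 537 CPM in adults to 21.3 and 20.4 CPM at day 12.5, and their part was not tested. A cycling cluster inside the basal class held many of the Upk3a counts of adult replicate 1, 345 CPM with 1526 CPM of ML markers in that cluster, and the Gpx3 call remained when it was left out. The Gpx3 call was lost without either day 12.5 library, without either day 18.5 library and without adult replicate 3. Without adult replicate 1, Fgg was called too, and without adult replicate 2 both Fgg and Tgm2. No member was called by edgeR between days 12.5 and 18.5 (0% of genes called, 0 members at an unadjusted p under 0.05, 0 by DESeq2), where Fgb had 0 UMIs in all 4 libraries. None was called between day 18.5 and lactation (0.922% of genes, 0.802% higher and 0.12% lower), where Upk3a had 0 UMIs throughout. There, Fgb and Tnip3 passed 0.05 before adjustment, and these 2 were calls of DESeq2. In basal cells of these stages Fgb was read in lactation replicate 1 alone. All kept cells of that library held 8 Fgb UMIs, 6 of them in ML cells, so the basal count lies under the floor of 3 counts. The basal Tnip3 level was far higher in lactation replicate 2 than in replicate 1, so its change rests mainly on 1 library.

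**Figure D4:**
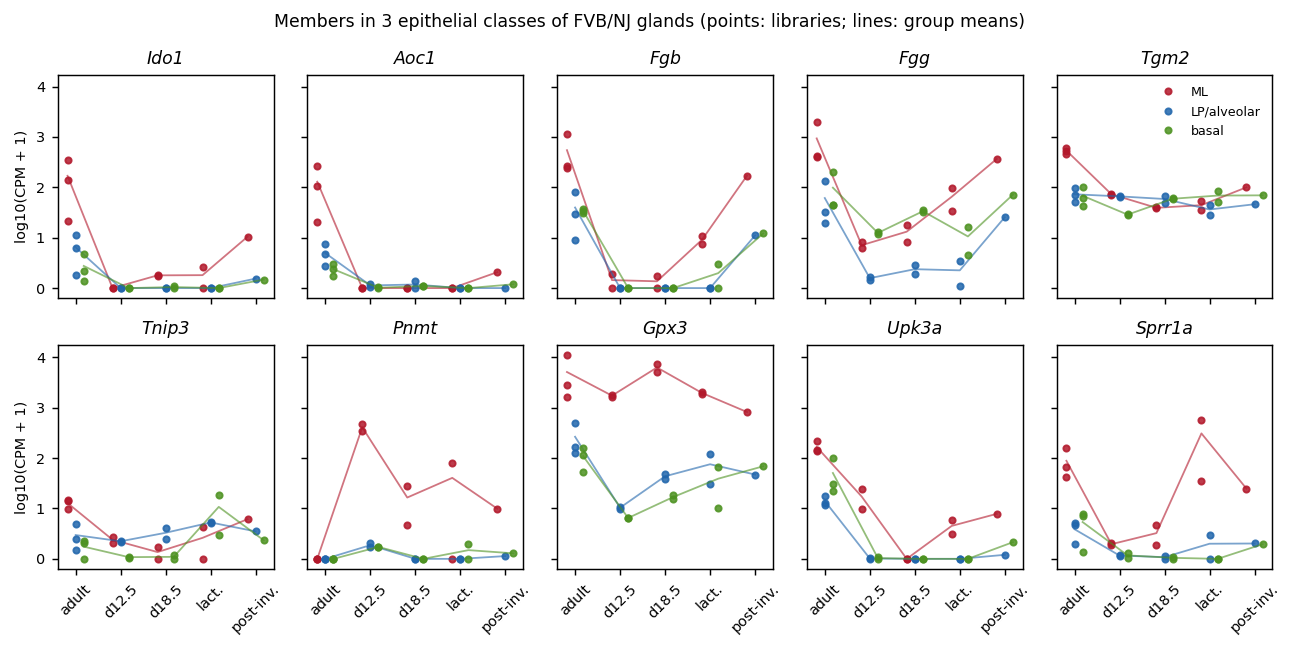
log10(CPM + 1) of each member in ML (red), LP/alveolar (blue) and basal (green) cells of adult, pregnancy day 12.5, pregnancy day 18.5, lactation and post-involution FVB/NJ libraries. Each point is a library and each line joins group means. In ML cells 8 of the 10 members are lower in both day 12.5 libraries than in every adult one, as are 17.7% of 8971 genes. The members were picked for such changes, so nothing is read from this count. Tgm2 in LP/alveolar cells stays within the adult range at day 12.5 and is under it in both lactation libraries, Gpx3 stays within the adult range in ML cells until lactation, and Pnmt peaks in ML cells at day 12.5.

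Within single adult ML cells, some pairs of members were found together more or less often than their shares alone would give. Pairs were counted in thinned cells, per library, wherever at least 5 cells with both transcripts were expected, and are given as descriptions. Fgb and Fgg were together in 1155 cells of 4 libraries against 619 expected (ratio 1.87, range 1.67 to 1.94 over libraries). Fgb and Upk3a were together in 270 cells against 115 expected (ratio 2.34, range 1.93 to 2.87). Both pairs were above expectation in 4 of 4 libraries. Fgg and Upk3a were nearer to it, with 235 cells against 199 expected (ratio 1.18, range 0.456 to 1.35), above in 4 of 5 libraries and below in SWISS.

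Aoc1 was found with Tgm2 and with Gpx3 more often than their shares would give. Aoc1 and Tgm2 had a ratio of 1.28 and Aoc1 and Gpx3 of 1.19, each above 1 in 4 of 4 libraries. Tgm2 and Gpx3 had 1.06 (above 1 in 5 of 5). A gene seen in a large share of cells, such as Gpx3, cannot reach a high ratio. The log2 odds ratio of joint detection, averaged over libraries, was 0.930, 1.33 and 0.433 for these pairs in turn. Ido1 and Aoc1 shared 202 cells against 137 expected in the 2 libraries where the pair could be read. Other pairs had ratios under 1: 0.470 for Aoc1 and Upk3a (3 of 3 libraries), 0.684 for Gpx3 and Upk3a (5 of 5), 0.734 for Ido1 and Fgb (4 of 4) and 0.768 for Aoc1 and Fgg (4 of 4). Aoc1 and Fgb had 0.672 but were above 1 in 1 of 3 libraries. Tgm2 with Upk3a had 1.14 (above 1 in 5 of 5 libraries).

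**Figure D5:**
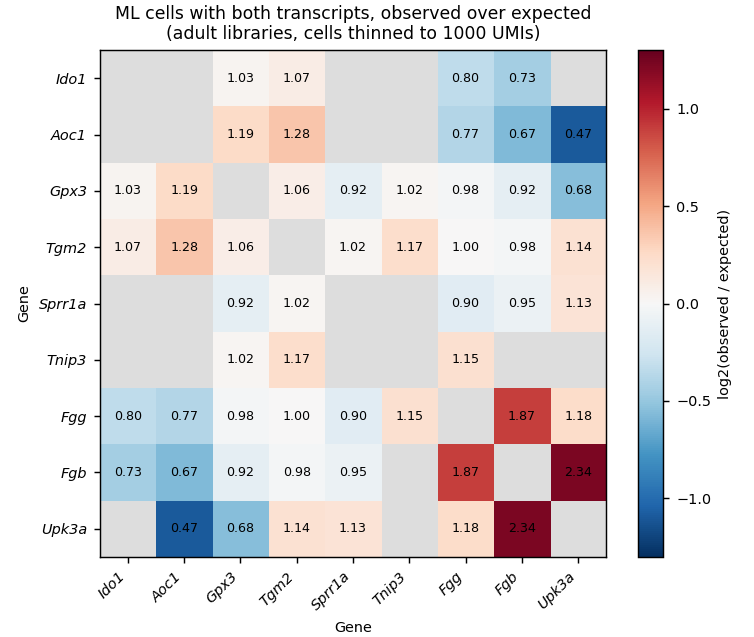
Observed over expected number of adult ML cells with both transcripts, for pairs readable in 3 or more libraries, coloured on a log2 scale with the ratio printed in each cell (grey: not readable or the gene itself). Red squares mark Fgb with Fgg (1.87) and Fgb with Upk3a (2.34), and blue squares Aoc1 with Upk3a (0.470) and Gpx3 with Upk3a (0.684).

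Correlation over cells was weak throughout. Only genes seen in at least 2% of ML cells in each of the 5 adult libraries were ranked, which can leave out other members. Among them the gene most like Gpx3 was Tmed3, with a mean Pearson r of 0.278 over the ML cells of these libraries. The ranked gene most like Upk3a was Pir (0.167). Over the 14 libraries, which share depth, strain and stage differences, the CPM of Fgb was most like that of Fgg (r = 0.971 on the log2 scale, n = 14) among 7772 genes, that of Ido1 like Glul (0.956), that of Tgm2 like Rasgrf1 (0.963) and that of Pnmt like Tmem29 (0.925).

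Other genes, from lists drawn up around the members' pathways, were tested in ML cells between adult and day 12.5. There 8.13% of 8971 genes were called, 4.64% higher and 3.49% lower. The median log2 change of all genes was -0.05. Means of the list genes are CPM after edgeR's TMM scaling over all genes, not the CPM outside the milk genes used above. Genes that passed the low-count filter through 1 of these stages alone were picked by it for a higher level there, and are given without a test. Of the kynurenine list 1 of 2 tested genes was called, the tryptophanyl-tRNA synthetase Wars, which is not an enzyme of that pathway. It went from a mean of 45.2 to 14.5 CPM (log2 change -1.64 ± 0.39, adjusted p = 0.0257). Of the acute-phase list 2 of 12 were called, both lower, haptoglobin Hp (log2 change -3.84 ± 1.04, adjusted p = 0.0453) and the cytokine signalling inhibitor Socs3 (-3.00 ± 0.74, adjusted p = 0.0316).

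Of the clotting list 1 of 2 was called, tissue factor F3, which starts the clotting cascade and fell from 531 to 38.2 CPM (adjusted p = 0.0281). Among amine and polyamine enzymes 2 of 10 were called in opposite directions: spermine oxidase Smox rose (10.4 to 95.4 CPM, log2 change 3.20 ± 0.36, adjusted p = 0.000489) and Amd1, of polyamine synthesis, fell (175 to 25.0 CPM). In the catecholamine list 2 of 3 genes passed the filter through 1 stage alone and the remaining 1 was not called. One of the 2 was the monoamine oxidase Maoa, with means of 45.8 and 5.19 CPM. Of the glutathione list 2 of 9 were called, with the selenium carrier Selenop higher (34.5 to 274 CPM) and glutathione reductase Gsr lower (223 to 55.6 CPM).

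Upk2, the only other uroplakin that passed the filter, did so through the adult libraries alone, with means of 27.6 and 1.42 CPM. Evpl, 1 of 2 tested genes of the cornified envelope list, passed it through adult and lactation libraries and fell (9.21 to 1.298 CPM, adjusted p = 0.0324). The NF-kB feedback list had 1 of 8 called (Bcl3, log2 change -1.64 ± 0.35) and the transglutaminase list 0 of 1. In the list of hormone receptors and their signals 3 of 15 were called: Calca, the calcitonin gene, and Tnfsf11, which encodes RANKL, rose to 3737 and 529 CPM, and Fgfr2 fell. Of 8 ML markers 1 was called, Ly6a, lower, and of 8 cell cycle genes that passed the filter through several stages 3 were called, all higher. Of 4 such LP markers Rspo1 and Elf5 rose, and of 10 dissociation-response genes Hspa1a and Atf3 fell. Dcn, of the fibroblast list, fell, whereas the mural Rgs5, the immune Lyz2 and the erythroid Hba-a1 rose; the part of these lists in the other changes was not tested. The genes named in these lists all kept their direction in every alternative, and 4 of them (Smox, Rspo1, Rgs5 and Lyz2) remained called when either day 12.5 library was left out.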

How the data were processed

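Single-cell count matrices of 18 libraries were used as deposited. The authors made these counts of UMIs per gene and barcode with Cell Ranger (3.1.0 in the submitters' notes, 3.0.2 or 3.1.0 in the matrix headers) on mm10, without normalization, and 9920346 to 93234616 UMIs were held per library. Barcodes with more than 500 genes and under each library's upper limits on genes, UMIs and mitochondrial share were kept (132599 of 149371). Cells were clustered with Seurat 5.3.0 at resolution 0.1 and classes were named from marker lists, so the classes are rebuilt ones. Counts were summed per library and class (at least 20 cells), with CPM taken outside the milk genes except for the list means, and shares thinned to 1000 UMIs. Scrublet's own caller marked 0.0222% to 5.34% of cells per library and so had not worked in some; doublets were kept in the main values, and removing the 6% of cells with the highest scores was an alternative.

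edgeR 4.0.16 (quasi-likelihood test, TMM, R 4.3.3) compared consecutive FVB/NJ stages, with 0.05 as threshold after Benjamini-Hochberg adjustment, and was tested on simulated data. Replicates are libraries of pooled mice, and p-values measure the spread between them. Poisson and Clopper-Pearson intervals cover counting error only. DESeq2 1.42.0, no TMM, no low-count filter, stricter cell filters, other clusterings and leaving out each library were the alternatives. All 10 members are named. From each list the called genes without overlap between stages, at most 3, are named, and for likeness the gene with the highest correlation. The members and lists were chosen with earlier results of these data known. Results of 1 gene list and 1 motif are not reported here.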

Additional observations from a re-analysis of the deposited data

Results flagged for a closer look

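Between pregnancy day 18.5 and lactation the mean Fgg level of ML cells went from 12.2 to 63.8 CPM, a ratio of 5.25, while that of basal cells went from 32.5 to 9.58 CPM, a ratio of 0.295. Both lactation libraries were above both day 18.5 libraries in ML cells and under them in basal cells. All kept cells of lactation replicate 2 held 27 Fgg UMIs, so its basal level rests on few counts. Between days 12.5 and 18.5 the mean Tgm2 level went from 71.8 to 38.1 CPM in ML cells (ratio 0.531) and from 27.7 to 58.2 CPM in basal cells (ratio 2.10), again without overlap of the libraries. In both cases the later libraries lay on one side of the earlier ones in one cell class and on the opposite side in the other. The difference between the classes was not tested.

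The E18.5 libraries, from Lgr5-GFP mice, are in no comparison above. Over all kept cells the members differed in direction between the mammary rudiment library and the skin library made beside it. Gpx3 was lower in the rudiment, at 4.601 CPM against 21.5 CPM, and Ido1, Aoc1 and Fgb had 0 UMIs there and at most 1 in skin. Sprr1a was at 37.0 CPM against 3.43 CPM in skin, Tgm2 at 21.7 against 4.68 CPM and Fgg at 11.9 against 0.734 CPM. Tnip3 was at 1.92 against 1.09 CPM, Upk3a at 1.502 against 0.119 CPM and Pnmt at 0.188 against 0.0198 CPM. The 6398 kept cells of the rudiment library included 596 called epidermis, 518 fibroblasts and 224 Schwann cells, and their part in these levels was not tested. Each tissue is 1 library, so tissue and library cannot be told apart.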

How the results depend on the processing

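In LP/alveolar cells 1670 genes were called between adult and day 12.5 (761 higher, 909 lower). Without TMM scaling, which moved the median of all genes to -0.26, 424 were higher and 1073 lower. Between days 12.5 and 18.5 there were 121 (102 higher, 19 lower) against 31 without TMM (21 and 10), and between day 18.5 and lactation 235 (192 higher, 43 lower) against 6147 (221 and 5926). In basal cells the later step had 123 calls (107 higher, 16 lower), and without TMM 81 were higher and 49 lower.

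Without the low-count filter the calls rose from 729 to 1485 in ML cells and to 2876, 925 and 958 over the 3 LP/alveolar steps. In basal cells they went from 186, 0 and 123 to 1076, 357 and 654. At an unadjusted p under 0.05, 1166 genes passed edgeR in the basal step with 0 calls. DESeq2 gave 662 and 558 in the later LP/alveolar steps, and 544, 165 and 374 in the basal ones. Resolution 0.2 gave 381 and the added secretory cluster 448 between day 18.5 and lactation in LP/alveolar cells, and cells with at least 1000 genes gave 319 and 3 in the first 2 basal steps. Between adult and day 12.5, members called in basal cells numbered 4 (1.39% of all genes called), 9 with no filter (5.21%), 7 with DESeq2 (3.62%) and 7 in cells with at least 1000 genes (2.45%).

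With each library left out in turn, calls ran from 122 to 1244 in ML cells, from 83 to 2485, 0 to 837 and 12 to 544 in LP/alveolar cells, and from 3 to 682, 0 to 138 and 0 to 321 in basal cells. Members called between adult and day 12.5 ran from 1 to 8 in LP/alveolar cells, where 0.606% to 18.8% of all genes were called, and from 1 to 8 in basal cells, where 0.0212% to 5.2% were. With cells thinned to 2000 UMIs or not thinned, 132 shares of ML cells with a transcript moved by more than the spread between replicates or the counting interval and 48 did not, so the printed shares hold for 1000 UMIs. Of the ML levels in CPM 70 moved and 480 did not, and of the pair ratios 7 and 112, with none crossing 1. A stage left with 1 library was assumed to vary like the others. The uncalled Tgm2 change in LP/alveolar cells turned to 0.041 without the filter and 0.18 without high Scrublet scores, and ran from -0.29 to 0.14 with libraries left out. That of Tnip3 turned to 0.10 without high Scrublet scores and ran from -0.77 to 0.14. The cause of these differences was not tested. Most of these members passed the filter through 1 stage alone, so their counts are no support. Over 17 alternatives in LP/alveolar cells Fgg and Gpx3 were each called in 15, lower throughout. The secretory cluster and the basal fit without the cycling cluster were chosen after seeing the data. No paired analysis was possible because GEO's labels name the libraries of a stage by letters, and the replicate numbers used here are names given in the order of deposit.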
